A study of Saccharomyces cerevisiae with 4 samples.

Results

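Electrons from NADH and succinate enter the mitochondrial respiratory chain of budding yeast through NADH dehydrogenases and succinate dehydrogenase, pass through ubiquinone, the cytochrome bc1 complex and cytochrome c, and are handed to oxygen by cytochrome oxidase. The bc1 complex and cytochrome oxidase move protons, and ATP synthase uses the gradient to make ATP. Budding yeast has no proton-pumping complex I, and its NADH dehydrogenases are simple flavoproteins. In glucose medium the nuclear genes of this pathway are partly repressed, and the CCAAT-binding HAP2/3/4/5 complex, whose activating subunit is HAP4, is known as their common activator. The 38 nuclear reading frames described here encode these enzymes, chosen by systematic name from a fixed list out of 6706 reading frames measured. They are 3 NADH dehydrogenases, 4 subunits of succinate dehydrogenase, 9 of the bc1 complex, 7 of cytochrome oxidase, and 15 genes of ATP synthase, among which INH1 encodes an inhibitor protein of the enzyme. All 38 were found in each library.

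RNA-seq set JRY2334, a wild-type strain, against JKY690, which carries a chromosome III cleared of tRNA genes (here tDNA-less), with 2 libraries of each, all W-303, MATa and grown to early log phase in the glucose medium YPD without treatment. Both strains carry ade2-1, trp1-1 and ura3-1. The wild type carries in addition mutant his3 and leu2 alleles and can1-100, which the other genotype label does not list. That label gives the deletions t0D, t1D, t3D and t4D, further t5D, t6D and t7D, then t8D+t9D::LEU2 as a replacement and T1+T7::HIS3. Loss of the tRNA genes and the change in the HIS3 and LEU2 markers therefore cannot be told apart. The tRNA genes themselves are not among the reading frames, so the deletions were not analysed here. The labels call the 2 libraries of a strain biological replicates without saying whether they are separate cultures, and in that case the p-values measure only the spread between these libraries.

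Library totals of estimated counts were 12.48 M and 19.76 M for wild type, and 12.94 M and 14.46 M for the tDNA-less strain. The 4 most counted reading frames took 39.6% and 30.6% of them in wild type and 45.1% and 36.1% in the tDNA-less strain. The share was higher in replicate 1 of each strain. At each replicate number it was also higher in the tDNA-less library, while the groups overlapped. The effective length, which kallisto derives from fragment lengths, was, at the median of reading frames over 1000 bases, 195 bases under the length in tDNA-less replicate 1, and 169 to 175 bases under it in the other libraries. The mating-type label was met by the a-specific genes, which summed to between 1002 and 1059 CPM, while 4 alpha-specific genes summed to between 24.6 and 29.8 CPM, mostly from SAG1. CPM here is the count as a share of the library total, scaled by the TMM factor and written per 1e6 counts. Fewer cells expressing a gene and less RNA per cell cannot be told apart in these bulk libraries.

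Most members, like most genes, have a short word upstream, which is shown first because the activator of the pathway is known by it. The word CCAAT, on either strand, lay within the 500 bases before the start codon of 35 of 38 members (92.1%), and of 62.6% of all 5726 tested nuclear genes with such a window. The longer word ACCAATNA, on either strand and containing the first, was found for 18 of 38 (47.4%), against 8.68% of all genes. It was present for 2 of 3 NADH dehydrogenases, 1 of 4 subunits of succinate dehydrogenase, 3 of 9 of the bc1 complex, 4 of 7 of cytochrome oxidase and 8 of 15 ATP synthase genes. Stretches around the word are given for called genes and for members of each later complex, read from the R64 assembly (sacCer3) on the coding strand with CCAAT, or ATTGG where the word lies on the other strand, in capitals.
NDI1 (chrXIII:30020-30044, minus strand): ttcattcggaCCAATcatatgaagg
NDE1 (chrXIII:556563-556587, minus strand): ttctggtaaaCCAATtaaagagaga
SDH1 (chrXI:171432-171456, minus strand): cgggggtggaCCAATcacagcgcag
RIP1 (chrV:107003-107027, plus strand): ccataacggaCCAATcagcgttttg
QCR7 (chrIV:1496715-1496739, minus strand): cttgttttgaCCAATcaggagcgac
QCR6 (chrVI:224861-224885, minus strand): taagggcagtATTGGttggcgctta
COX8 (chrXII:910152-910176, minus strand): acggtttgcaCCAATcatacgagag
COX6 (chrVIII:209480-209504, plus strand): aagggacctaATTGGtccggtcaaa
ATP4 (chrXVI:408919-408943, minus strand): caatattgaaCCAATcacgacgctt
ATP17 (chrIV:1228372-1228396, plus strand): acggagagaaCCAATcatatcgaag
INH1 (chrIV:134937-134961, plus strand): cacaattatgCCAATcaactgtcta
The stretches of QCR6 and INH1 hold CCAAT without the longer word, and the others hold both. In NDI1 the word lay 223 to 227 bases before the start codon, in RIP1 243 to 247, in QCR7 177 to 181, in COX8 197 to 201 and in ATP4 185 to 189. CYT1 had no CCAAT within this window. Of the 5 called members, 4 had CCAAT and 2 the longer word. The uncalled members shown all hold the longer word, which 20 of the 38 members lack. Between strains, the median log2 fold change was 0.24 for the 18 members with ACCAATNA and 0.24 for the 20 without it. A match of these letters is a description of the sequence and not a measurement of binding.

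As a group the members were slightly higher in the strain without tRNA genes on chromosome III. In edgeR's quasi-likelihood test over 6205 reading frames, with a call at a Benjamini-Hochberg adjusted p under 0.05, 5 of the 38 members rose (13.2%) and 0 fell, while the other 33 did not pass. Among all reading frames tested 0.806% rose and 0.693% fell, 1.5% in all. An unadjusted p under 0.05 with a higher level was found for 24 members, and for 6.19% of all reading frames. The 5 were NDI1 (YML120C), NDE1 (YMR145C), CYT1 (YOR065W), QCR6 (YFR033C) and INH1 (YDL181W). A positive log2 fold change was fitted for 36 members, and 50.6% of all reading frames had one; on log2(TPM + 1), where TPM is transcripts per 1e6, the difference was positive for 32 members. The median log2 fold change was 0.24, or 1.18-fold, against 0.0028 for all reading frames, of which 12.4% lay above the median of the members. Both tDNA-less libraries exceeded both wild-type libraries in CPM for 30 members (78.9%), the groups overlapped for 8, and 0 were lower throughout. Among all reading frames 22% were higher throughout in this way and 20.8% lower throughout.

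**Figure D1:**
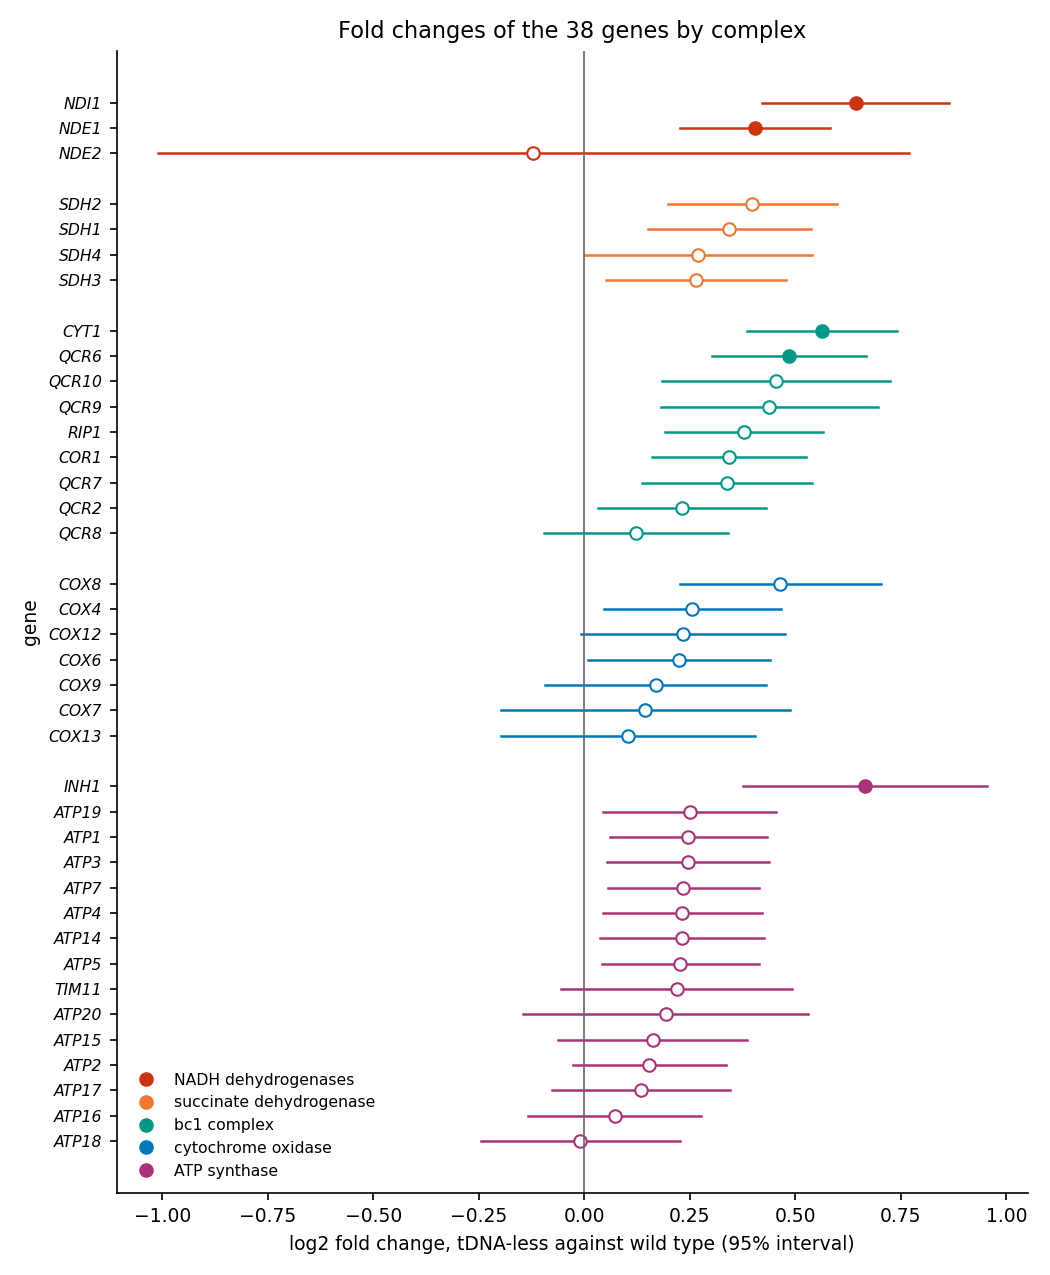
Log2 fold changes (x axis, tDNA-less against wild type) of the 38 genes (y axis, grouped and coloured by complex), with 95% intervals of the edgeR fit as lines; filled points passed the test. All points but NDE2 and ATP18 lie above 0, and the 5 filled points are NDI1, NDE1, CYT1, QCR6 and INH1.

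Summed over all 38 genes, the level was 2956 and 3001 CPM in the wild-type libraries and 3524 and 3740 CPM in the tDNA-less libraries, a ratio of means of 1.22. The order of the strains was the same in each complex, and the size of the ratio differed. The NADH dehydrogenases summed to 226 and 214 CPM in wild type and to 301 and 295 CPM without the tRNA genes, a ratio of 1.35. The bc1 complex summed to 902 and 923 CPM and then to 1156 and 1211 CPM, a ratio of 1.30. For succinate dehydrogenase the sums were 185 and 186 CPM against 223 and 241 CPM, a ratio of 1.25. Cytochrome oxidase had the ratio 1.17, from 305 and 323 to 356 and 381 CPM. ATP synthase had the ratio 1.15, from 1339 and 1354 to 1488 and 1613 CPM. The 2 wild-type libraries lay close together in these sums, and tDNA-less replicate 2 was above replicate 1 in every complex except the NADH dehydrogenases. A sum is weighted towards long and abundant reading frames, and the differences in ratio between complexes were not tested.

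**Figure D2:**
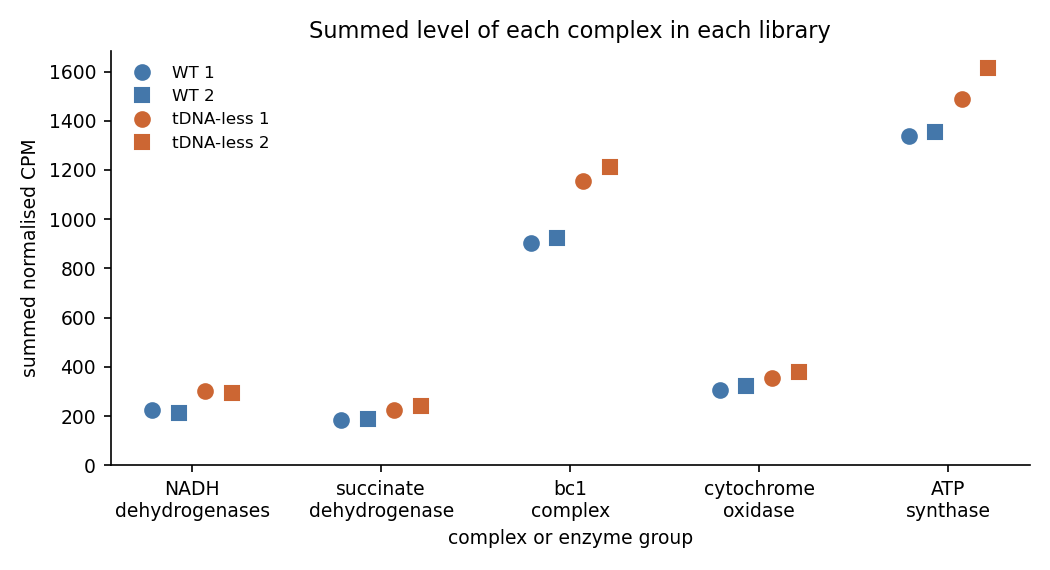
Summed normalised CPM (y axis) of the genes of each complex or enzyme group (x axis) in each of the 4 libraries; WT is wild type, circles are replicate 1 and squares replicate 2. In each of the 5 groups both tDNA-less points lie above both wild-type points, with ratios of means from 1.15 for ATP synthase to 1.35 for the NADH dehydrogenases.

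The NADH dehydrogenases hold 2 of the 5 calls. NDI1 is the internal enzyme, which oxidises NADH of the mitochondrial matrix, and its gene lies on chromosome XIII (28266 to 29807). It had 29.8 and 32.6 CPM in wild type and 48.3 and 49.5 CPM in the tDNA-less strain. The groups did not overlap and the libraries of each strain were close together. The log2 fold change was 0.64 ± 0.10 (SE), a rise of 1.56-fold (edgeR, adjusted p = 0.0102). NDE1, the main external enzyme for cytosolic NADH, lies on the same chromosome (554793 to 556475) and had 194 and 179 CPM in wild type and 250 and 243 CPM in the tDNA-less strain. Again both tDNA-less libraries were higher, by 0.40 ± 0.08 on the log2 scale or 1.32-fold (edgeR, adjusted p = 0.0407). NDE2, its paralog, was nearly silent, with 1.78, 2.95, 2.29 and 2.17 CPM in the order wild type 1 and 2, tDNA-less 1 and 2. These values rest on 22 to 66 counts a library, the groups overlapped, and the interval of its log2 fold change ran from -1.01 to 0.77. No 31-base word of any member occurs in another annotated reading frame of R64, so reads of NDE1 and NDE2 can be told apart at that length.

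Leaving out 1 library leaves a strain with a single library, so that the other strain alone supplies the spread, and the lone library is assumed to vary like it. In these refits the fold changes stayed near the full values, from 0.58 to 0.71 on the log2 scale for NDI1 and from 0.34 to 0.46 for NDE1, while calls were lost. NDI1 lost its call without wild-type replicate 1 (edgeR, adjusted p = 0.0525), without tDNA-less replicate 1 (0.181) and without tDNA-less replicate 2 (0.21), and kept it without wild-type replicate 2 (0.0217). NDE1 lost its call without wild-type replicate 2 (edgeR, adjusted p = 0.143), without tDNA-less replicate 1 (0.502) and without tDNA-less replicate 2 (0.357).

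Succinate dehydrogenase oxidises succinate in the TCA cycle and passes the electrons to ubiquinone. Of its 4 genes 0 were called, whether by edgeR, by limma-voom or by DESeq2. An unadjusted p from edgeR was under 0.05 for 3 of them, and in all 4 both tDNA-less libraries were above both wild-type libraries. Among all reading frames tested, 6.19% had such a p with a higher level, and 22% were above in CPM in this way. Of the 4 subunits SDH2, the iron-sulfur subunit, had the largest difference. It had 41.7 and 41.2 CPM in wild type and 53.8 and 55.3 CPM in the tDNA-less strain. Its log2 fold change was 0.40, with a 95% interval from 0.20 to 0.60 (edgeR, adjusted p = 0.0748). SDH1, the flavoprotein, had 55.1 and 56.7 CPM against 68.1 and 73.8 CPM, a log2 fold change of 0.34. The membrane anchors had lower values. SDH3 had 50.2 and 44.8 CPM in wild type and 56.5 and 57.2 CPM in the tDNA-less strain, a log2 fold change of 0.26, and SDH4 had 38.4 and 43.8 CPM against 44.7 and 54.6 CPM, one of 0.27. For SDH4 the gap between the nearest libraries of the strains was under 1 CPM.

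The bc1 complex, which carries electrons from ubiquinol to cytochrome c, gave 2 calls among its 9 nuclear genes. For all 9 members both tDNA-less libraries were above both wild-type libraries in CPM, and for 6 also in TPM. An unadjusted p under 0.05 was found for 8. Among all reading frames tested, 22% were above in this way in CPM and 6.82% in TPM, and 6.19% had such a p with a higher level. The median log2 fold change of the 9 members was 0.38, with values from 0.12 to 0.56. CYT1, cytochrome c1, on chromosome XV (447439 to 448368), had 86.7 and 88.6 CPM in wild type and 126 and 133 CPM in the tDNA-less strain. Replicate 2 was above replicate 1 by 2.23% in wild type and by 5.55% in the tDNA-less strain, less than the strains differed. CYT1 rose 1.48-fold, or by 0.56 ± 0.08 on the log2 scale (edgeR, adjusted p = 0.00725). QCR6, the acidic hinge protein that helps cytochrome c1 meet cytochrome c, on chromosome VI (224326 to 224769), had 194 and 176 CPM against 257 and 260 CPM. It rose 1.40-fold, or by 0.48 ± 0.08 on the log2 scale (edgeR, adjusted p = 0.0172). DESeq2 called COR1 in addition to these 2 genes.

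The other catalytic subunit of nuclear origin is RIP1, the Rieske iron-sulfur protein. It had 52.9 and 51.8 CPM in wild type and 66.7 and 69.2 CPM in the tDNA-less strain, a log2 fold change of 0.38 that did not pass (edgeR, adjusted p = 0.0709). The core proteins COR1 and QCR2 hold the matrix side of the complex. COR1 had 214 and 230 CPM against 272 and 292 CPM (log2 fold change 0.34), and QCR2 had 161 and 169 CPM against 180 and 207 CPM (0.23). Of the small subunits, QCR7 had a log2 fold change of 0.34, QCR9 one of 0.44 and QCR10 one of 0.45, from wild-type means of 110, 27.3 and 22.2 CPM, and none of the 3 passed. QCR8 had the smallest difference of the complex, with 42.2 and 39.1 CPM in wild type and 42.9 and 45.3 CPM in the tDNA-less strain. Its interval on the log2 scale ran from -0.09 to 0.34. QCR9 and QCR10 are the only members with an intron in the annotation.

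In edgeR, CYT1 was not called when tDNA-less replicate 1 (adjusted p = 0.121) or replicate 2 (0.191) was removed, and was called without either wild-type library (0.0275 and 0.02). Its log2 fold change over these 4 refits was 0.52 to 0.60, and that of QCR6 0.42 to 0.55. QCR6 lost its call without wild-type replicate 2 (edgeR, adjusted p = 0.0638), without tDNA-less replicate 1 (0.291) and without tDNA-less replicate 2 (0.289). On the scale of log2(TPM + 1) 0 members were called, with adjusted p from limma of 0.351 for CYT1 and 0.358 for QCR6.

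**Figure D3:**
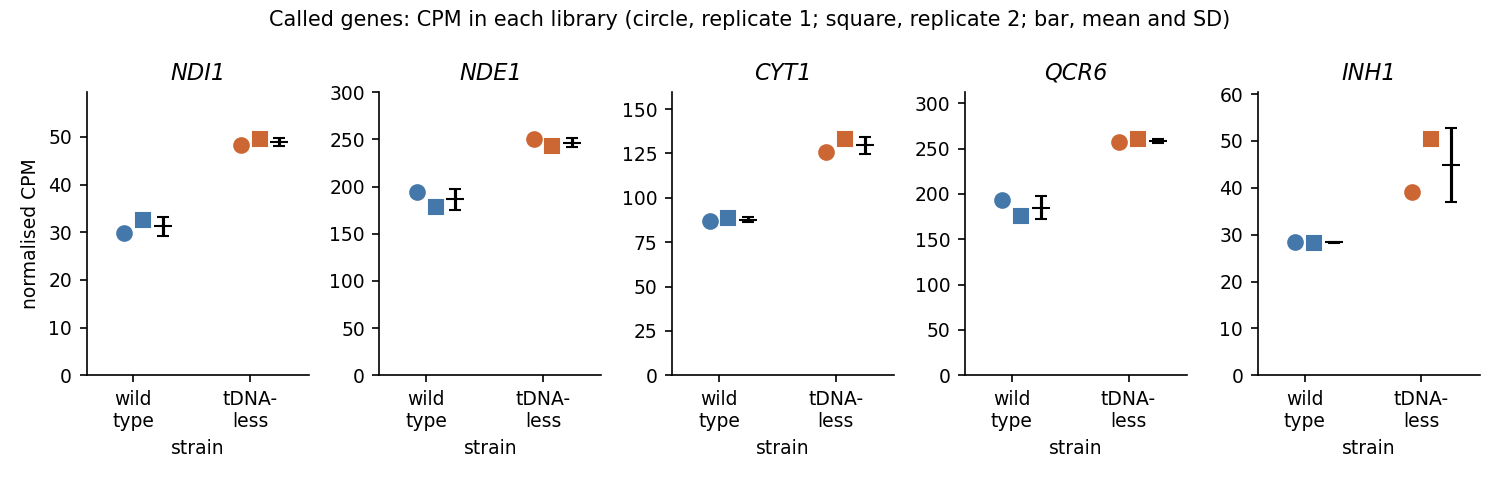
Normalised CPM (y axis, starting at 0) of the 5 called genes in wild-type (blue) and tDNA-less (orange) libraries (x axis, strain); circles are replicate 1, squares replicate 2, and the bar is the mean with its SD (n = 2 per strain). In each panel both tDNA-less points lie above both wild-type points. Relative to its level, the widest spread is between the tDNA-less libraries of INH1, at 39.2 and 50.4 CPM.

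Cytochrome oxidase reduces oxygen at a core of mitochondrially encoded subunits, around which the nuclear subunits measured here are arranged. The 7 members gave 0 calls in edgeR and likewise in limma-voom and DESeq2. An unadjusted p under 0.05 was found for 3, and all 7 had a positive log2 fold change on counts, with a median of 0.22. Among all reading frames tested, 6.19% had such a p with a higher level, and 50.6% had a positive log2 fold change. COX7 and COX9 were negative on log2(TPM + 1) (-0.066 and -0.056). COX8, a small membrane subunit, differed most, with 41.6 and 47.5 CPM in wild type and 65.8 and 57.8 CPM in the tDNA-less strain. The groups did not overlap, and the log2 fold change was 0.46 with an interval from 0.23 to 0.70 (edgeR, adjusted p = 0.0808). COX4, which binds zinc, had a log2 fold change of 0.26, COX12 one of 0.23 and COX6 one of 0.22. In each of those 3 the tDNA-less libraries were also above the wild-type libraries. COX7, COX9 and COX13 had overlapping groups. COX9, the most abundant member per length, had 58.7 and 51.2 CPM in wild type and 55.3 and 67.7 CPM in the tDNA-less strain. COX13 had 52.1 and 65.9 CPM against 56.7 and 70.5 CPM, so that replicate 2 exceeded replicate 1 by more than the strains differed, and its log2 fold change was 0.10 (interval -0.20 to 0.40).

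ATP synthase makes ATP in a soluble head, F1, driven by the membrane part, Fo. The 14 structural subunits gave 0 calls in edgeR, and 0 also in limma-voom and DESeq2, with 7 at an unadjusted p under 0.05. Among all reading frames tested, 6.19% had such a p with a higher level. The log2 fold changes of the 14 subunits had a median of 0.22 and a highest value of 0.25. In the head, ATP1 (alpha) had 205 and 192 CPM in wild type and 224 and 247 CPM in the tDNA-less strain, a log2 fold change of 0.25. ATP2 (beta), the catalytic subunit, had 377 and 393 CPM against 409 and 448 CPM, one of 0.15. ATP3 (gamma) had one of 0.25, ATP16 (delta) one of 0.07 and ATP15 (epsilon) one of 0.16, the last 2 being negative on log2(TPM + 1) (-0.026 and -0.036). ATP15, the most abundant gene of the complex per length, had 55.1 and 63.7 CPM in wild type and 63.4 and 69.9 CPM in the tDNA-less strain, so its groups overlapped.

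In the stalk that holds the head, ATP4 (b), ATP5 (OSCP), ATP7 (d) and ATP14 (h) each had a log2 fold change of 0.23. In the membrane part and at the dimer contacts the values were ATP19 (k) 0.25, TIM11 (e) 0.22, ATP20 (g) 0.19, ATP17 (f) 0.13 and ATP18 (i/j) -0.01. ATP18 was the lowest, with 36.2 and 32.4 CPM in wild type and 33.8 and 34.2 CPM in the tDNA-less strain, and its interval ran from -0.25 to 0.23. On TPM it was lower throughout, with 801 and 746 TPM in wild type and 602 and 724 TPM in the tDNA-less strain. ATP20 had 25.9 and 27.9 CPM in wild type and 25.8 and 35.6 CPM in the tDNA-less strain, where only replicate 2 was higher.

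INH1 was the called gene of this group. It encodes the small protein that blocks ATP hydrolysis by the enzyme when the proton gradient collapses, on chromosome IV (135179 to 135436). It had 28.5 and 28.2 CPM in wild type and 39.2 and 50.4 CPM in the tDNA-less strain, so the wild-type libraries nearly coincided while tDNA-less replicate 2 was 28.4% above replicate 1. INH1 rose 1.59-fold, or by 0.66 ± 0.13 on the log2 scale (edgeR, adjusted p = 0.0373). The value is close to that of NDI1 and was 0.47 without tDNA-less replicate 2 and 0.83 without tDNA-less replicate 1. Its interval ran from 0.38 to 0.95, and a test of INH1 against the subunits was not made. Leaving out any library ended the call, with an adjusted p from edgeR of 0.12 and 0.136 without wild-type replicates 1 and 2, and of 0.0575 and 0.406 without tDNA-less replicates 1 and 2. The related regulators STF1 and STF2 were not called. STF2 had 6.57 and 7.07 CPM in wild type and 10.4 and 11.9 CPM in the tDNA-less strain (log2 fold change 0.71; edgeR, adjusted p = 0.18), and STF1 had a log2 fold change of 0.26.

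Levels per length, as TPM, differed widely between members of a complex. Mean wild-type TPM ran from 78.9 for RIP1 to 487 for QCR6 in the bc1 complex, from 120 for COX4 to 1237 for COX9 in cytochrome oxidase, and from 82.5 for ATP3 to 1167 for ATP15 in ATP synthase. In succinate dehydrogenase the range was 22.9 for SDH1 to 80.0 for SDH3, and among the NADH dehydrogenases 1.17 for NDE2, 16.4 for NDI1 and 88.5 for NDE1. The median over all reading frames tested was 20.3 TPM. COX9 (180 bases) and ATP15 (189 bases) are also among the shortest reading frames of the set. In 10 members the effective length, which kallisto uses as divisor, was under 100 bases in at least 1 library, down to 31.3 bases, so their TPM depends strongly on the assumed fragment lengths. The neighbours RIP1 (77.1 and 80.6 TPM) and CYT1 (79.3 and 86.9 TPM) overlapped between the wild-type libraries.

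**Figure D4:**
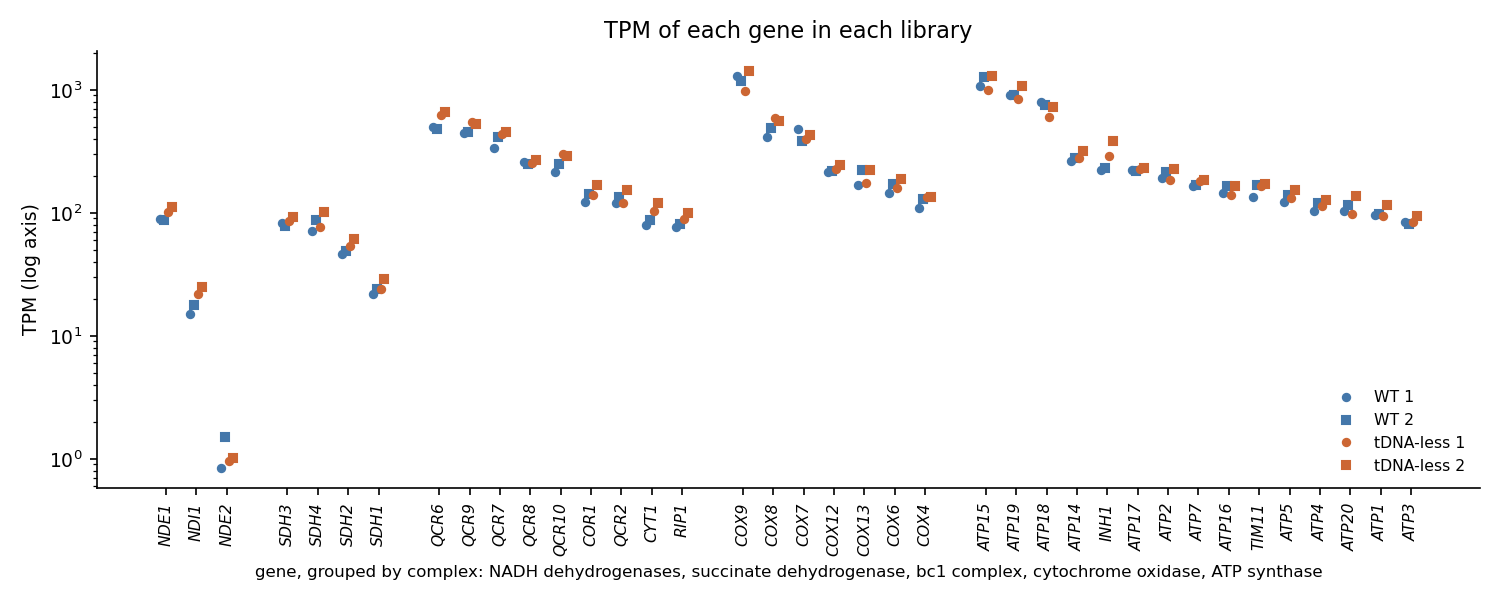
TPM (y axis, log scale) of each gene (x axis, ordered within its complex by mean wild-type TPM) in each of the 4 libraries; WT is wild type, circles are replicate 1 and squares replicate 2. Short reading frames such as COX9 (1237 TPM in wild type) and ATP15 (1167 TPM) are highest, and NDE2 (1.17 TPM) is lowest.

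Effective length differed between libraries in an order that turned with length. It was lowest in tDNA-less replicate 1 for 32 members, and highest there for 4 of the shortest, COX7, COX9, ATP15 and ATP18. For COX9 it was 31.3 and 32.5 bases in wild type and 34.0 and 32.7 bases in the tDNA-less strain. The part of effective length in the TPM differences of these 4 was not tested. The median log2 fold change was 0.23 in the 12 members under 300 bases and 0.25 in the other 26. With the effective length as an offset in edgeR, an alternative chosen after seeing the data, the same 5 members were called. On TPM, both tDNA-less libraries were above both wild-type libraries for 18 members rather than 30, and below them for 1, ATP18. Among all reading frames 6.82% were higher throughout on TPM and 36.2% lower throughout. TPM was taken as deposited, with no TMM factor, and on log2(TPM + 1) the median difference of all reading frames was -0.11 and that of the members 0.13.

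None of the members lies on chromosome III. They are spread over 12 chromosomes, and 1 of 38, ATP1, lies within 1 kb of an annotated tRNA gene (565 bases; chromosome II, 37053 to 38690), against 7.10% of all located nuclear reading frames. Of the called genes, QCR6 was the nearest to a tRNA gene, at 1919 bases.

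Of 161 other genes listed, mating-type genes included, 2 rose, CYC1 and HAP4. Among all reading frames tested 0.806% rose. Of 4 genes for cytochrome c and the subunit Va and Vb isoforms, 1 rose, CYC1, the main cytochrome c, with 138 and 154 CPM in wild type and 191 and 207 CPM in the tDNA-less strain (log2 fold change 0.44 ± 0.09; edgeR, adjusted p = 0.0407). COX5A, the aerobic subunit Va of cytochrome oxidase, had 119 and 126 CPM against 149 and 165 CPM (log2 fold change 0.36; edgeR, adjusted p = 0.0978). COX5B, its hypoxic isoform, had a log2 fold change of 0.04 at 8.37 to 11.5 CPM, and CYC7, the second cytochrome c, had 1.22 to 2.03 CPM. CYC1 lost its call without wild-type replicate 1 (edgeR, adjusted p = 0.139), without tDNA-less replicate 1 (0.296) and without tDNA-less replicate 2 (0.501), with log2 fold changes of 0.36 to 0.52 over the 4 refits.

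Of the 5 HAP regulators, 1 rose. HAP4, the activating subunit, had 77.8 and 76.8 CPM in wild type and 105 and 107 CPM in the tDNA-less strain, a rise of 1.37-fold (log2 fold change 0.46 ± 0.08; edgeR, adjusted p = 0.0194). The groups did not overlap, and the libraries of each strain nearly coincided. Without any 1 of them the call was lost, with an adjusted p from edgeR of 0.0523 and 0.0548 without the wild-type libraries and of 0.291 and 0.291 without the tDNA-less libraries, while its log2 fold change stayed at 0.44 to 0.46. On log2(TPM + 1) neither CYC1 nor HAP4 was called (limma, adjusted p = 0.442 and 0.508). The DNA-binding subunits had log2 fold changes of -0.17 for HAP2, 0.29 for HAP3 and 0.16 for HAP5, and HAP1, a heme-responsive activator, had one of -0.27, and none of these passed.

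The mitochondrially encoded partners were sparse. Of 7 such genes 5 were tested, with 0 called in edgeR and 0 in limma-voom and DESeq2, and 2 at an unadjusted p under 0.05. The log2 fold change was positive for all 5 tested, with a median of 0.60. For 3 of them both tDNA-less libraries were above both wild-type libraries in CPM. Among all reading frames tested, 50.6% were positive and 22% were above in this way. The sum of the 7 genes was 38.1 and 18.1 CPM in wild type and 46.4 and 34.0 CPM in the tDNA-less strain. In this sum replicate 1 was above replicate 2 in both strains, and the groups overlapped. COX3 had the largest difference, with 2.27 and 0.985 CPM against 3.97 and 2.98 CPM (log2 fold change 1.15; edgeR, adjusted p = 0.352).

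Of 90 genes in 8 lists that assemble the complexes, make their cofactors, or encode paralogs and other dehydrogenases, 0 were called by edgeR. Among all reading frames tested edgeR called 1.5% in either direction at an adjusted p under 0.05. DESeq2 and limma-voom also called 0 of the 90. An unadjusted p from edgeR under 0.05 in either direction was found for 5 of them. Of all reading frames tested, 6.19% had such a p in the higher direction alone. For 32 cytochrome oxidase assembly genes the median log2 fold change was 0.22, and COA3, which acts in the synthesis of COX1, had the largest value, 0.50 (30.2 and 34.4 CPM against 42.4 and 49.4 CPM; edgeR, adjusted p = 0.082). The 13 ATP synthase assembly and expression genes had a median of 0.16, and the 6 genes of succinate dehydrogenase assembly and FAD supply one of 0.15. The 13 genes of bc1 assembly, COB expression and heme attachment had a median of 0.02, the 11 coenzyme Q genes one of 0.01 and the 8 heme genes one of -0.09. The 3 paralogs of succinate dehydrogenase subunits had a median of 0.17 and together 8.68 to 12.1 CPM a library. The 4 other dehydrogenases that feed ubiquinone or cytochrome c had a median of 0.31, led by CYB2, the L-lactate dehydrogenase, at 4.70 and 4.97 CPM against 6.17 and 6.78 CPM (log2 fold change 0.42; edgeR, adjusted p = 0.563).

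Glucose-repressed genes were read beside these values, and growth itself was not measured here. Of 17 listed, 16 were tested, with a median log2 fold change of -0.00059, 0 called by edgeR or limma-voom, 3 at an unadjusted p under 0.05 and 1 called by DESeq2, GLK1. The hexose kinases had the largest differences, GLK1 with 36.0 and 46.4 CPM in wild type and 55.0 and 70.0 CPM in the tDNA-less strain (log2 fold change 0.59; edgeR, adjusted p = 0.104). GLK1 (YCL040W) lies on chromosome III, from which the tRNA genes were removed, and the part of its position was not tested. HXK1 differed by 0.67 on the log2 scale (edgeR, adjusted p = 0.216). POX1, of peroxisomal fatty acid oxidation, had one of 0.54 and MLS1, the glyoxylate-cycle malate synthase, one of -0.43, both at 5.11 CPM or less. The sum of the list was 247 and 285 CPM in wild type and 276 and 303 CPM in the tDNA-less strain, so the groups overlapped. The part of growth state in the differences of the members was not tested.

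**Figure D5:**
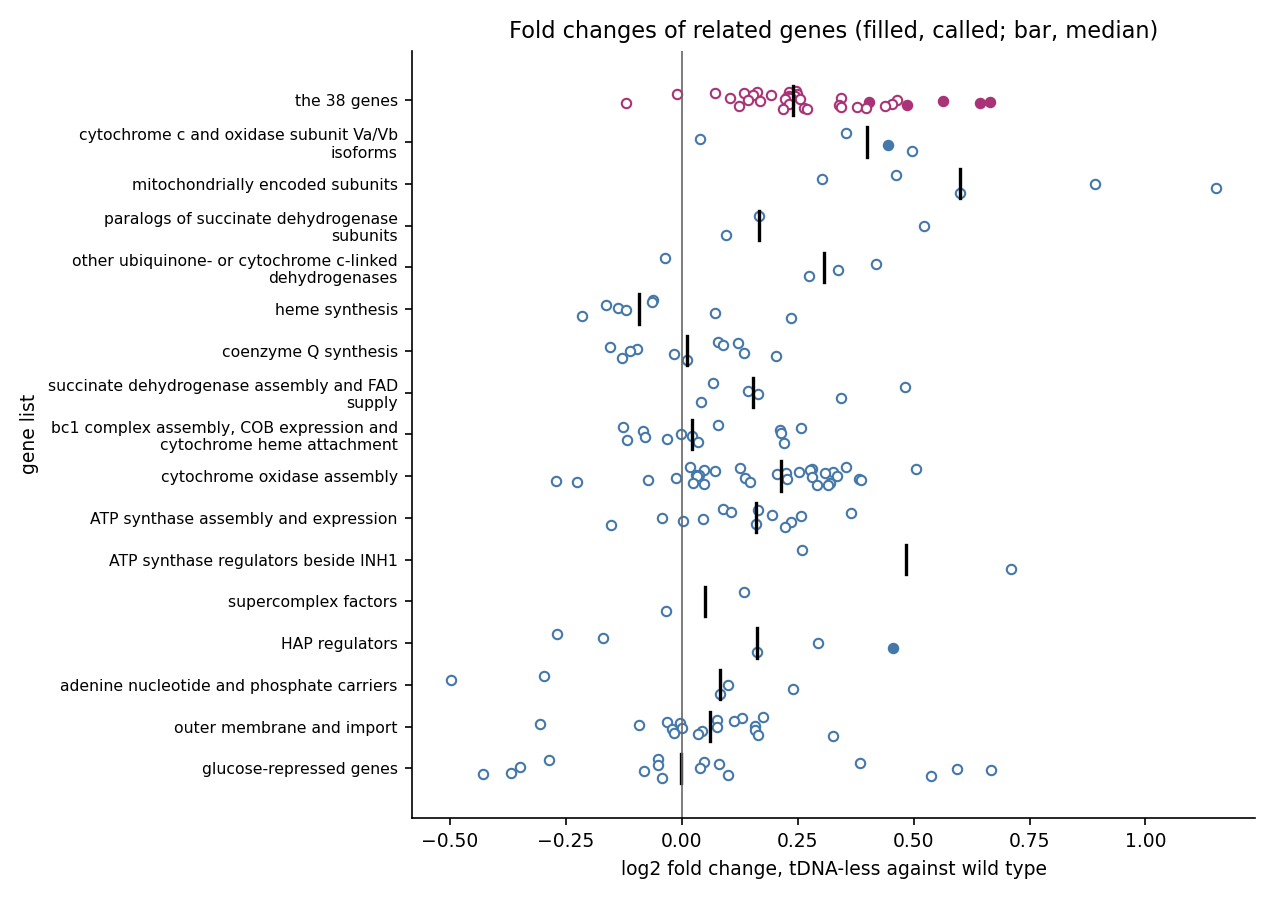
Log2 fold changes (x axis) of the 38 genes and of the tested genes of 16 related lists (y axis); each point is a gene, filled points passed the test and the black bar is the list's median. The median of the 38 genes is 0.24, that of the glucose-repressed genes lies at 0, and the filled points outside the 38 genes are CYC1 and HAP4.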

How the data were processed

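RNA was measured in 2 wild-type and 2 tDNA-less libraries, made with a directional kit per the labels. Per the file headers, the deposited files hold for each reading frame a length, an effective length, an estimated count and a TPM. The submitters' processing notes name kallisto, sleuth and sacCer3. For kallisto's version, index and strand setting: not given in the sources used here. TPM as deposited is scaled per effective length and per library. Replicates were not duplicates of each other (chi-square per degree of freedom 62.8 in wild type and 45.9 in tDNA-less).

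Estimated counts were rounded, filtered with filterByExpr (edgeR 4.0.16 in R 4.3.3; minimum of 10 counts, 6205 of 6706 reading frames kept, all 38 members among them), scaled by TMM and compared with edgeR's quasi-likelihood test, adjusted by Benjamini-Hochberg over all reading frames tested. Standard errors are the absolute log2 fold change over the square root of F. The 95% intervals use the total degrees of freedom of the fit, which add to the residual ones those borrowed across reading frames. A permutation of 2 against 2 libraries cannot go below p = 0.333, so every p comes from the model. On simulated data with known changes, the fit recovered 70.1% of 1.5-fold, 92.5% of 2-fold and 100% of 4-fold changes. Of its 181 calls 6 were false. The simulated counts were drawn from the fit's own model, with independent libraries of the same composition apart from the changes. Only reading frames with an expected count above 50 were changed. These values therefore describe the model on its own output and are not the power or error rate for the real libraries. Smaller changes, such as the members' median of 1.18-fold, were not simulated.

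Positions and sequences are from R64, in which 6010 reading frames were found, 99.7% with the same coding length and all 38 members among these. The upstream window and words were chosen after seeing the data. The other 696 have no position here, so overlap with them was not checked, and whether antisense reads were kept apart is not stated. The members and lists were chosen with earlier results of these data known. Libraries are given in full for called members and for the members of each complex with the largest and smallest change and the highest TPM, and other genes were named from the lists, called ones first, then by size of change. Other members and list genes with values were chosen after their values were seen. Alternatives were DESeq2 1.42.0 and its size factors, other filters, limma-voom and limma-trend (limma 3.58.1), removal of the 4 most counted reading frames, a replicate block, each library left out, and 2 added after seeing the data.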

Additional observations from a re-analysis of the deposited data

How the results depend on the processing

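The direction and call of all 38 members were the same with size factors of DESeq2 in place of TMM, all low counts kept, removal of the 4 most counted reading frames, and effective length as an offset. A minimum mean of 50 counts left NDE2 out and moved the median of the NADH dehydrogenases to 0.52. DESeq2 called 6 members higher, among 61 higher calls over all 6205 reading frames tested. Limma-voom called 5 members higher, among 54 such calls, and there ATP18 turned to 0.0047. On log2(TPM + 1) and log2(TPM + 0.1), limma-trend called 52 and 39 reading frames and 0 members on either scale. Median log2 differences there were 0.26 and 0.27 for the NADH dehydrogenases, 0.18 and 0.18 for succinate dehydrogenase, 0.26 and 0.26 for the bc1 complex, 0.13 and 0.13 for cytochrome oxidase, 0.11 and 0.11 for ATP synthase, and 0.13 and 0.13 for all members. The same 4 members reversed on both, COX7 (-0.066 and -0.066), COX9 (-0.056 and -0.056), ATP15 (-0.036 and -0.036) and ATP16 (-0.026 and -0.026). Centring each library on its median, added after seeing the data, gave 19 calls and 0 members, a median of 0.26, and NDE2 at 0.016. The cause of these changes was not tested.

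Leaving out 1 library gave 21 to 91 calls over all reading frames and 0 to 3 members. The lowest and highest medians were 0.20 and 0.31 for all members, 0.34 and 0.46 for the NADH dehydrogenases, 0.27 and 0.40 for succinate dehydrogenase, 0.35 and 0.42 for the bc1 complex, 0.20 and 0.29 for cytochrome oxidase, and 0.15 and 0.25 for ATP synthase. Members that reversed had a range of -0.41 to 0.32 (NDE2), -0.048 to 0.33 (COX7), -0.065 to 0.29 (COX13), -0.017 to 0.15 (ATP16), -0.092 to 0.061 (ATP18) and -0.064 to 0.39 (ATP20).

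No label ties libraries of the same replicate number, and there are only 2 pairs, so the fit without the block was kept. Deviations of same-numbered libraries correlated at 0.24 across reading frames. With a replicate block edgeR called 282 reading frames and 13 members, adding SDH1, SDH2, COR1, RIP1, QCR7, QCR9, QCR10 and COX8, with a single residual degree of freedom.

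Without a wild-type library 68 of the 93 calls remained in either refit, and without tDNA-less replicate 1 or 2 19 or 23 did. Each such refit takes its spread from 1 strain, so a lost call alone does not show whether the fold changed. Among the called members the log2 fold change of INH1 moved from 0.66 to 0.47 without tDNA-less replicate 2. It moved to 0.83 without tDNA-less replicate 1. The lowest count of a member other than NDE2 was 257 in a library. Sparse counts limit NDE2 and the mitochondrially encoded genes, and short effective lengths limit TPM of the smallest reading frames.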

Other observations

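Genes that bring substrates and proteins to the respiratory enzymes were measured beside them. The 5 adenine nucleotide and phosphate carriers had a median log2 fold change of 0.08, with 0 called by edgeR and 0 by either other tool run (limma-voom, DESeq2). In edgeR 1 of the 5 had an unadjusted p under 0.05. PET9, the major ADP/ATP carrier, differed by 0.24 on the log2 scale (edgeR, adjusted p = 0.222). AAC3, its hypoxic isoform, had the largest value of the list, -0.50 (edgeR, adjusted p = 0.674), at 2.19 and 3.09 CPM in wild type and 2.12 and 1.69 CPM in the tDNA-less strain. AAC1, another isoform, had one of -0.30, and PIC2 and MIR1, phosphate carriers, had 0.08 and 0.10. The 18 outer membrane and import genes had a median of 0.06, again with 0 called by the same tools and 1 at an unadjusted p under 0.05. TOM70, an import receptor, had the largest value there, 0.33 (edgeR, adjusted p = 0.198), and POR2, a minor porin isoform, the lowest, -0.31 (edgeR, adjusted p = 0.445). The 2 tested supercomplex factors had a median of 0.05 and 0 calls by these tools, with 0 at an unadjusted p under 0.05.

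Within the tDNA-less strain 30 of the 38 members were higher in replicate 2 than in replicate 1, by a median of 4.14% over all 38, and in wild type 21 were, by a median of 2.65%.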
